A study of Saccharomyces cerevisiae with 32 samples.

Results

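Translation in a cold-sensitive mutant of the yeast RNA helicase Ded1 was compared with translation in its wild-type counterpart at 15 °C, by ribosome profiling and mRNA sequencing. The mutant strain, ded1-cs (NSY54), contributed 2 footprint and 2 mRNA libraries, and DED1-CS WT (NSY52), the strain that carries the wild-type allele, contributed 2 of each. These 8 libraries are part of 32 in the series, which also holds ded1-ts and dbp1-deletion strains at 37 °C and strains with high-copy DBP1. Cells of both strains were grown in SC medium to an OD600 of about 0.7, with plasmid selection where needed, shifted in temperature, and given cycloheximide at 100 µg/ml for 2 min before they were collected. The labels give neither the mutation in ded1-cs nor the time spent at 15 °C, and they do not say whether either allele is on a plasmid. The authors pooled the 2 libraries of each strain and assay into 1 normalized log2 level per gene, so no spread between replicates can be given and no difference below was tested against one. All genes of the table for these strains were considered. Of 5390 reading frames, 5078 (94.2%) had a mean level of at least 50 in both assays and were analysed, and 312 were below it.

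Ded1 is a DEAD-box ATPase that unwinds RNA and helps the small ribosomal subunit load on mRNA and scan the 5′ leader to the start codon. Budding yeast needs it for growth, and Dbp1 is a closely related helicase of lower abundance. Ribosome footprints count the ribosomes on each reading frame, and the footprint change minus the mRNA change, on the log2 scale, is the change in translational efficiency. Cycloheximide before harvest can alter where ribosomes sit. A gene is called higher or lower here where its log2 change, ded1-cs over DED1-CS, is at least 1 in size, which is 2-fold. The normalized level is a sum over each reading frame that was not divided by its length, so levels are compared between strains and not between genes.

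DED1 (YOR204W) itself had a log2 footprint level of 18.5 in ded1-cs against 15.83 in DED1-CS and a log2 mRNA level of 14.9 in ded1-cs against 13.6 in DED1-CS. Both levels were higher in ded1-cs, and its share of the summed footprint level was 0.977% in ded1-cs and 0.221% in DED1-CS. Its translational efficiency change is 1.35 per the authors' deposited table, or 0.76 when the columns are scaled to equal totals. The level of DED1 does not show which allele it is, so this does not check the strain labels. HIS3, the close neighbour of DED1 on its chromosome, had a log2 footprint level of 17.9 in ded1-cs against 18.59 in DED1-CS and a log2 mRNA level of 17 in ded1-cs against 17.7 in DED1-CS. DBP1 (YPL119C) had a log2 footprint level of 9.2 in ded1-cs against 8.64 in DED1-CS and a log2 mRNA level of 8.5 in ded1-cs against 8.5 in DED1-CS, a change below 2-fold in both assays. All 7 a-cell markers were present in both strains, at log2 mRNA levels between 7.6 (ASG7) and 13.1 (STE2) in ded1-cs. Of the alpha-cell genes, the receptor STE3 had a log2 mRNA level of 4.9 in ded1-cs against 6.9 in DED1-CS and MF(ALPHA)1 one of 3.4 in ded1-cs against 5.2 in DED1-CS, and MF(ALPHA)1 is below the minimum level for analysis. SAG1, alpha-agglutinin, had one of 9.7 in ded1-cs against 9.3 in DED1-CS, so the alpha-cell genes did not share a direction. Depth per library is unknown. The column totals were 37932174 for footprints and 15548820 for mRNA in ded1-cs, and 26354258 and 16315336 in DED1-CS.

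The mutant differed from DED1-CS far more in footprints than in mRNA. The SD of the change over the 5078 genes was 1.08 for footprints and 0.39 for mRNA, on the log2 scale. In translational efficiency 832 genes (16.4%) were higher in ded1-cs and 1113 (21.9%) were lower. In footprints 710 (14.0%) were higher and 1023 (20.1%) lower, and in mRNA 62 (1.22%) were higher and 45 (0.886%) lower. Most footprint changes came without an mRNA change of note. Of the 1023 genes lower in footprints, 885 (86.5%) had an mRNA change within 0.5 on the log2 scale, and so did 582 (82.0%) of the 710 higher ones. Most of all 5078 genes were within that range too, as 422 were higher and 385 lower in mRNA at a log2 threshold of 0.5. These shares are therefore not particular to genes with changed footprints. The lower side reached further, with 296 genes at a translational efficiency change of -2 or less and 20 at 2 or more. The split between higher and lower depends on the scaling. Scaling each column to the same total moved every translational efficiency by -0.59, every footprint change by -0.53 and every mRNA change by 0.07, and gave 91 genes higher and 1789 lower in translational efficiency. The counts became 157 higher and 1663 lower for footprints, and 86 higher and 38 lower for mRNA. Each median of a gene group below is therefore its distance from the median over the 5078 genes, which was 0.10 for translational efficiency. The counts with columns scaled to equal totals, written as counts at equal totals, stand beside each group. They are to be read against the 91 higher and 1789 lower of the 5078 genes under that scaling.

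**Figure D1:**
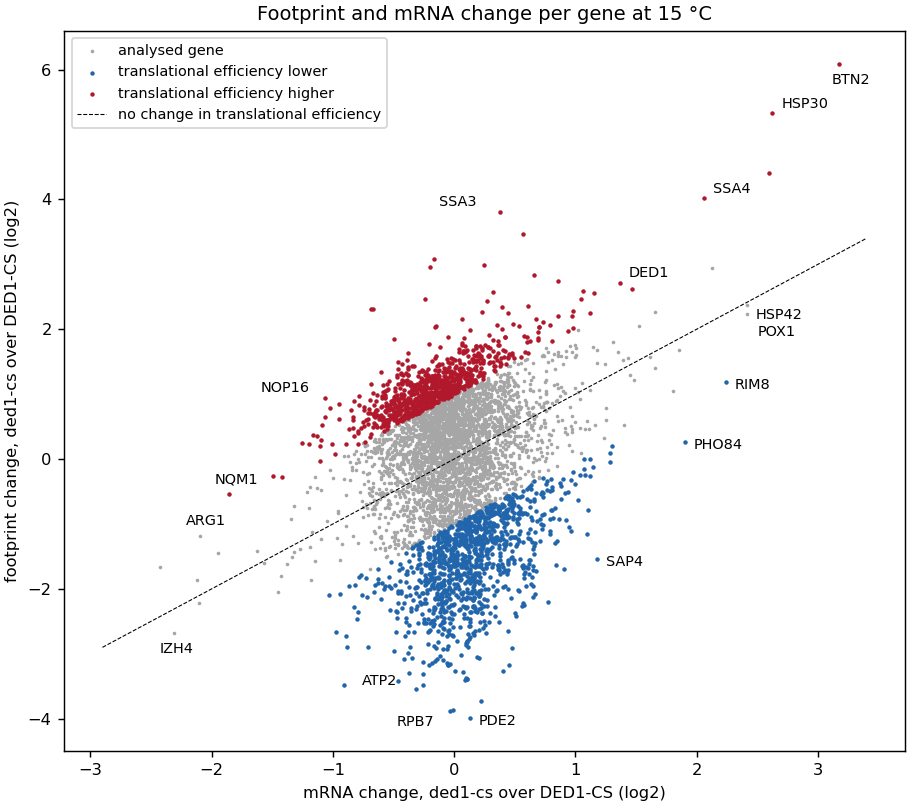
Footprint change against mRNA change, ded1-cs over DED1-CS, on log2 axes, for 5078 genes, with 1 point per gene. Blue and red points are the 1113 genes lower and the 832 genes higher in translational efficiency, and the dashed line marks equal change in both assays; the cloud is tall and narrow, and the genes named at the right end have raised mRNA.

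Footprints in ded1-cs were concentrated on fewer genes. The 10 genes with the most footprints held 29.4% of the summed footprint level in ded1-cs and 19.3% in DED1-CS, and the top 100 held 57.7% in ded1-cs and 46.3% in DED1-CS. The top 100 genes by mRNA held 35.9% of the mRNA in ded1-cs and 35.0% in DED1-CS, which differ far less. The 100 genes with the most footprints in DED1-CS held 56.3% of the footprints in ded1-cs, against 46.3% in DED1-CS, and 34.4% of the mRNA in ded1-cs, against 33.5% in DED1-CS. Such shares do not depend on how the columns were scaled. Genes of glycolysis and fermentation, 25 in the list, held 24.8% of all footprints in ded1-cs and 16.4% in DED1-CS, while their share of mRNA was 10.2% in ded1-cs and 9.06% in DED1-CS. The glyceraldehyde-3-phosphate dehydrogenase gene TDH3 alone held 4.49% of footprints in ded1-cs and 2.91% in DED1-CS, and the enolase gene ENO1 1.95% in ded1-cs and 1.18% in DED1-CS. TDH3 shares long stretches with TDH1 and TDH2, so reads of these genes cannot be fully told apart. Elongation and termination factors held 9.74% in ded1-cs against 7.45% in DED1-CS. In the other direction, amino acid biosynthesis held 3.15% of footprints in ded1-cs against 4.96% in DED1-CS. Lipid synthesis held 0.611% in ded1-cs against 1.64% in DED1-CS, and P-type ATPases 0.186% in ded1-cs against 0.857% in DED1-CS. The mRNA share was lower too for amino acid biosynthesis, 3.20% in ded1-cs against 4.12% in DED1-CS, and for lipid synthesis, 1.27% against 1.78%. For P-type ATPases it was 0.881% in ded1-cs against 0.747% in DED1-CS.

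**Figure D2:**
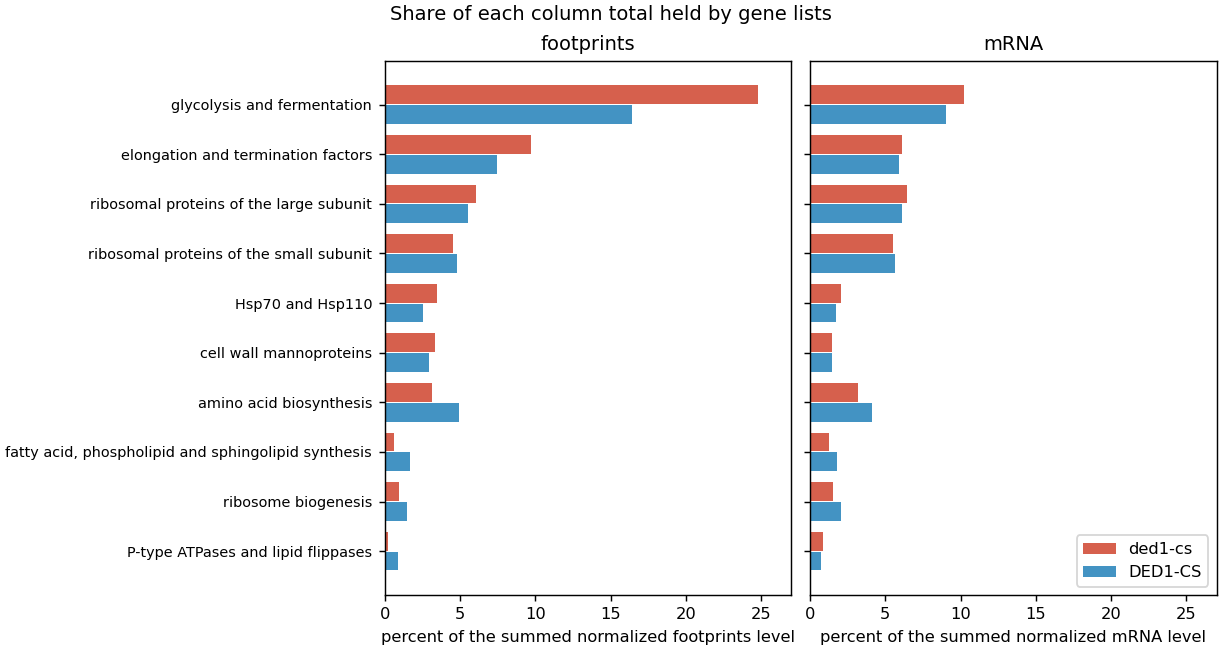
Share of the summed normalized footprint level (left) and mRNA level (right) held by 10 gene lists, in percent, with ded1-cs in red above DED1-CS in blue; bars are the authors' pooled values, with no error bars because none can be had. Glycolysis and fermentation genes hold 24.8% of footprints in ded1-cs and 16.4% in DED1-CS, with 10.2% and 9.06% of the mRNA.

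Genes of fairly high mRNA level, in bins 7 and 8 of those defined next, were the ones most often lower in translational efficiency. When the analysed genes were cut into 10 equal bins by their mean mRNA level, bin 1 being the lowest, 33.7% of bin 7 and 33.9% of bin 8 were lower, against 8.07% of bin 1 and 10.6% of bin 10. Higher genes showed the opposite order, with 30.9% of bin 1, 9.07% of bin 7 and 19.5% of bin 10. The median translational efficiency change was 0.62 in bin 1, -0.46 in bin 7 and 0.53 in bin 10. The mRNA level enters both the grouping and the translational efficiency, and it was not divided by length, so these are descriptions. A measure from libraries outside this comparison was the footprint-to-mRNA ratio of the DED1-TS strain at 37 °C. Over 5071 genes, cut into 5 equal bins by this ratio, 25.7% of the bin with the lowest ratio were lower in ded1-cs, against 16.7% of the bin with the highest, and the median change was -0.13 in the lowest bin and 0.39 in the highest.

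**Figure D3:**
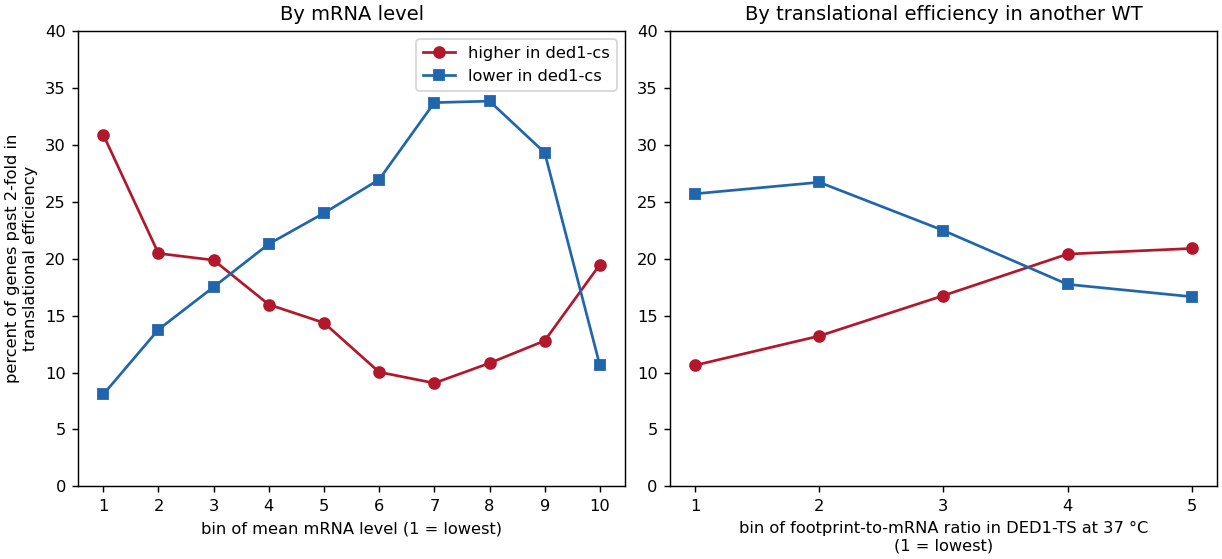
Percent of genes higher (red circles) or lower (blue squares) in translational efficiency in ded1-cs against DED1-CS, in 10 bins of mean mRNA level (left) and in 5 bins of the footprint-to-mRNA ratio in DED1-TS at 37 °C (right). Lower genes reach 33.9% in bin 8 of mRNA level and stand at 10.6% in bin 10.

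Cell cycle regulators stood lower. Of 17 genes of G1 and S phase control, 9 were lower and 0 higher in translational efficiency, or 12 lower and 0 higher at equal totals, with a median of -1.28 relative to all genes, while 21.9% of all genes were lower. SWI4, the DNA-binding subunit of the G1/S activator SBF, had a log2 footprint level of 7.8 in ded1-cs against 9.45 in DED1-CS and a log2 mRNA level of 9.7 in ded1-cs against 9.2 in DED1-CS. The footprint level was thus lower in ded1-cs while the mRNA level was higher. SWI4 stands at -2.22 per the authors' deposited table, its partner SWI6 at -1.78 and MBP1, the DNA-binding subunit of the related factor MBF, at -1.41. WHI3, an RNA-binding protein that restrains the G1 cyclin Cln3, is at -1.99 per the authors' deposited table. The inhibitor of SBF, WHI5, and the cyclin PCL1 are the highest of the list per the authors' deposited table, at 0.88 and 0.87, below 2-fold. Of 27 genes of mitotic cyclins and mitotic exit, 13 were lower and 0 higher, or 20 lower and 0 higher at equal totals, with a relative median of -1.04. They include SWI5, a transcription factor of late mitosis, at -2.27, the cyclin CLB3 at -1.73 and the separase ESP1 at -1.55 per the authors' deposited table. The S phase cyclins CLB5 and CLB6 stand at 0.19 and 0.52 there.

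Many kinases and phosphatases that signal nutrients and lipids were lower too, while 21.9% of all genes were lower and 16.4% higher. Of 25 genes of cAMP and glucose signalling, 12 were lower and 1 higher, or 15 lower and 0 higher at equal totals, with a relative median of -1.01. PDE2, which degrades cAMP, had a log2 footprint level of 7.7 in ded1-cs against 11.7 in DED1-CS and a log2 mRNA level of 12.1 in ded1-cs against 12 in DED1-CS. Its translational efficiency change, -4.12 per the authors' deposited table, is the lowest of all analysed genes. TPK2 and TPK3, catalytic subunits of the cAMP-dependent protein kinase, stand at -2.92 and -2.22 per the authors' deposited table, and BCY1, its regulatory subunit, at -0.33. SNF1, the kinase active when glucose is scarce, and its partner SNF4 are at -1.73 and -1.66 per the authors' deposited table, and the repressor MIG1 at -2.21. The Ras proteins RAS1 and RAS2 (-0.02 and -0.19) and their GTPase activators IRA1 and IRA2 (0.05 and -0.04) were within 2-fold per the authors' deposited table. The single higher gene is HXK2, hexokinase, at 1.34 per the authors' deposited table. Of 25 genes of phosphoinositide metabolism, 11 were lower and 0 higher, or 15 lower and 0 higher at equal totals, with a relative median of -0.80. Among them the authors' deposited table has the lipid phosphatases YMR1 at -3.67 and INP53 at -2.70, and the kinases STT4 and MSS4 at -1.13 and -1.18.

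Membrane pumps and permeases held many lower members, while 21.9% of all genes were lower and 16.4% higher in translational efficiency. Of 17 P-type ATPases and lipid flippase genes, 9 were lower and 0 higher, or 10 lower and 0 higher at equal totals, with a relative median of -1.21. The Golgi calcium pump PMR1 stands at -2.84 per the authors' deposited table, although it overlaps another annotated gene. YPK9, a vacuolar ATPase, is at -2.43 and the essential flippase NEO1 at -2.24 per the authors' deposited table, while the sodium pumps ENA1, ENA2 and ENA5, near-identical copies, are between -0.02 and 0.00. PMA1, the plasma membrane proton pump, had a log2 footprint level of 14.8 in ded1-cs against 17.36 in DED1-CS and a log2 mRNA level of 16.3 in ded1-cs against 16 in DED1-CS, so its mRNA level was slightly higher in ded1-cs. PMA1 held 0.0752% of all footprints in ded1-cs and 0.638% in DED1-CS. Of 27 permeases for amino acids, ammonium and nucleobases, 12 were lower and 0 higher, or 18 lower and 0 higher at equal totals. All 3 ammonium permeases are in that count, with MEP1 at -1.03, MEP2 at -1.08 and MEP3 at -1.25 per the authors' deposited table, and the general amino acid permease GAP1 at 0.29 is not. Of 27 genes of metal and phosphate uptake, 10 were lower and 1 higher, or 21 lower and 1 higher at equal totals. Among the lower are the copper transporter CTR1 at -2.87 and the siderophore transporter ARN1 at -1.97 per the authors' deposited table. The zinc transporter ZRT2 is lower too, at -3.00 per the authors' deposited table, while its relative ZRT1 is at -0.25, below 2-fold. The potassium transporter TRK2 was the single higher gene, at 1.72 per the authors' deposited table, and its relative TRK1 is at -0.18. Of 18 ABC transporters 7 were lower and 0 higher, or 12 lower and 0 higher at equal totals. Of 26 mitochondrial solute carriers 9 were lower and 0 higher, or 14 lower and 0 higher at equal totals. The ADP/ATP carrier PET9 is at -2.04 per the authors' deposited table, and the phosphate carrier MIR1 at 0.66. Hexose transporters did not share this direction. Of 11 genes 1 was higher and 1 lower, or 0 higher and 3 lower at equal totals. On the deposited scale they are HXT3 at 1.10 and STD1, a regulator and no transporter, at -1.95 per the authors' deposited table.

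The secretory pathway and the cell wall held lists at both ends. The shares over all genes were 21.9% lower and 16.4% higher in translational efficiency. Of 35 genes of N-glycosylation and O-mannosylation, 16 were lower and 2 higher, or 24 lower and 0 higher at equal totals, with a relative median of -1.04. OST1, a subunit of oligosaccharyltransferase, had a log2 footprint level of 9.5 in ded1-cs against 12.62 in DED1-CS and a log2 mRNA level of 12.2 in ded1-cs against 12.5 in DED1-CS. Its fellow subunits OST3 and OST6 are at -1.86 and -1.30 per the authors' deposited table, while the very short subunits OST4 and OST5 are at 0.86 and 1.10. Of 30 genes of wall synthesis and the cell integrity pathway, 11 were lower and 1 higher, or 19 lower and 0 higher at equal totals, with a relative median of -0.73. FKS1, the glucan synthase, had a log2 footprint level of 13.4 in ded1-cs against 15.89 in DED1-CS and a log2 mRNA level of 14.7 in ded1-cs against 14.8 in DED1-CS. The wall sensor SLG1 is at -2.64, and the chitin synthases CHS2 and CHS3 at -2.25 and -2.24 per the authors' deposited table. The secreted glucan-remodelling enzymes GAS1 and BGL2, in the same list, stand at 0.76 and 1.19 per the authors' deposited table. Structural mannoproteins of the wall formed the opposite group. Of 26, 13 were higher and 0 lower, with a relative median of 0.80, or 4 higher and 1 lower at equal totals. The flocculin FLO11 had a log2 footprint level of 9.5 in ded1-cs against 7.02 in DED1-CS and a log2 mRNA level of 8.5 in ded1-cs against 8.8 in DED1-CS. TIR4 is at 2.03, SED1 at 1.44 and CCW14 at 1.15 per the authors' deposited table. Several mannoprotein genes hold repeats and close copies, so their counts are uncertain. Of 29 coat and Golgi factor genes 9 were lower and 1 higher, or 14 lower and 0 higher at equal totals. SEC21, the gamma subunit of the COPI coat, had a log2 footprint level of 10 in ded1-cs against 13.24 in DED1-CS and a log2 mRNA level of 12.8 in ded1-cs against 12.7 in DED1-CS. Its partner COP1 is at -2.14 per the authors' deposited table, RET2 and RET3 are at 0.32 and -0.12, and SEC28 is at 1.46.

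Lower members were also found among lipid, nuclear transport and transcription genes. Of 33 genes of fatty acid, phospholipid and sphingolipid synthesis, 8 (24.2%) were lower and 3 (9.09%) higher, or 15 lower and 0 higher at equal totals. The share lower is close to the 21.9% of all genes. AUR1, which makes inositol phosphorylceramide, is at -2.59 per the authors' deposited table. The fatty acid synthase subunits parted, with FAS1 at -1.57 and FAS2 at 0.10 per the authors' deposited table. FAS1 held 0.0532% of footprints in ded1-cs and 0.385% in DED1-CS, and FAS2 0.173% in ded1-cs and 0.372% in DED1-CS. In ergosterol synthesis 9 of 24 were lower and 1 higher, or 11 lower and 0 higher at equal totals. Both HMG-CoA reductase genes were lower, HMG1 at -1.77 and HMG2 at -2.95 per the authors' deposited table. Of 45 nuclear pore and nuclear transport genes, 17 were lower and 1 higher, or 28 lower and 0 higher at equal totals, with a relative median of -0.93. The exportin CRM1 had a log2 footprint level of 9.8 in ded1-cs against 12.92 in DED1-CS and a log2 mRNA level of 12.1 in ded1-cs against 12.5 in DED1-CS. The importin PSE1 is at -2.52 and the mRNA export factor YRA1 at -2.40 per the authors' deposited table, while GSP1, the yeast Ran GTPase, is the single higher one at 1.10. In transcription and chromatin complexes 25 of 68 were lower and 8 higher, or 34 lower and 0 higher at equal totals, from SSN3, a kinase of Mediator, at -2.54 to SNF5, a subunit of the SWI/SNF remodeller, at 1.58 per the authors' deposited table.

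**Figure D4:**
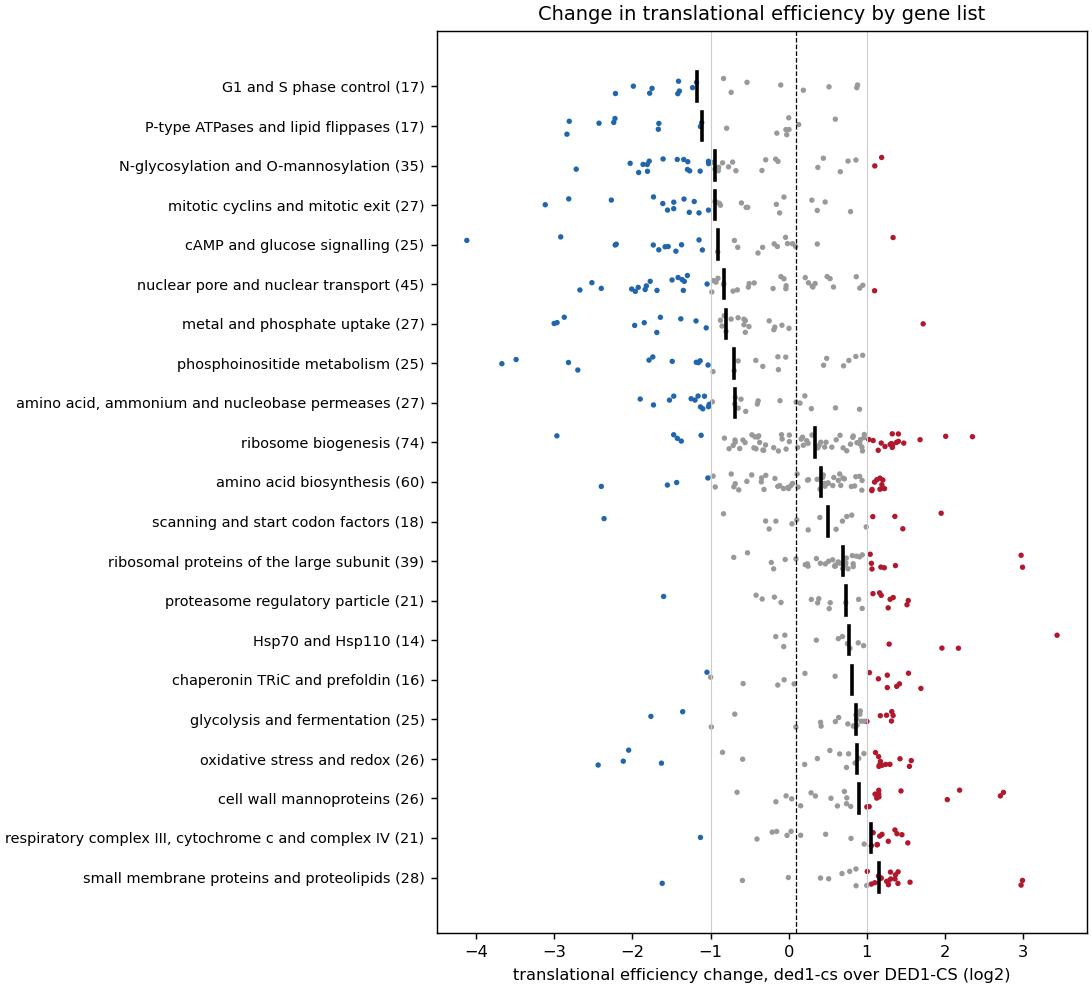
Change in translational efficiency (log2, ded1-cs over DED1-CS) of each analysed member of 21 gene lists, with the number of members in parentheses. Points are genes, blue where lower and red where higher by 2-fold or more, thick bars are list medians, and the dashed line is the median of all analysed genes (0.10); the lists run from G1 and S phase control, with 9 of 17 lower, to small membrane proteins and proteolipids, with 18 of 28 higher.

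Subunits of one complex could stand far apart. In the mitochondrial ATP synthase list 4 of 23 genes (17.4%) were lower and 6 (26.1%) higher, or 4 lower and 0 higher at equal totals. These counts include factors of assembly or regulation that are no subunits, such as ATP25 at -1.10 and STF2 at 1.56 per the authors' deposited table. Of all genes 21.9% were lower and 16.4% higher, and the counts in the assemblies described here are not far from these shares. ATP2, the catalytic beta subunit, had a log2 footprint level of 11 in ded1-cs against 14.58 in DED1-CS and a log2 mRNA level of 13.5 in ded1-cs against 13.9 in DED1-CS. ATP3, the gamma subunit of the same F1 head, is at 0.97 and the short subunit ATP18 at 1.46 per the authors' deposited table. ATP2 held 0.0054% of all footprints in ded1-cs and 0.0929% in DED1-CS. In the vacuolar proton ATPase list 6 of 20 (30%) were lower and 3 (15%) higher, or 10 lower and 1 higher at equal totals. Among the higher is VMA22, an assembly factor and no subunit, at 1.59 per the authors' deposited table. The catalytic subunit VMA1 and the membrane subunit VPH1 are at -1.66 and -2.07 per the authors' deposited table, the short subunits VMA9 and VMA10 at 1.28 and 1.62. RNA polymerases had 6 of 31 (19.4%) lower and 5 (16.1%) higher, or 8 lower and 1 higher at equal totals. RPB7 had a log2 footprint level of 6.1 in ded1-cs against 9.97 in DED1-CS and a log2 mRNA level of 9.8 in ded1-cs against 9.9 in DED1-CS, and RPB4, with which Rpb7 forms the stalk of RNA polymerase II, is at -2.25 per the authors' deposited table. The largest subunits of the polymerases, RPA190, RPO21 and RPO31, are all lower, at -2.31, -1.45 and -2.47 per the authors' deposited table. RPB10, a short subunit shared by all 3 polymerases, is at 1.75 and RPC17 at 1.48 there.

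The machinery of ER entry also held genes at both ends. Of 26 genes 5 (19.2%) were lower and 7 (26.9%) higher, or 6 lower and 1 higher at equal totals, and the share lower is near that of all genes. SEC61, the channel of the translocon, had a log2 footprint level of 11.2 in ded1-cs against 13.39 in DED1-CS and a log2 mRNA level of 12.1 in ded1-cs against 11.8 in DED1-CS. Its homolog SSH1 is at -2.87 and SEC62 at -1.96 per the authors' deposited table, while SEC72 is at 1.55 and the signal recognition particle subunits SEC65 and SRP72 at 1.61 and 1.42. Mitochondrial ribosomal proteins had 13 of 66 (19.7%) lower and 14 (21.2%) higher, shares near those of all genes, or 23 lower and 3 higher at equal totals. They run from MRP7 at -2.95 to MRP2 at 1.73 per the authors' deposited table. In the kinetochore and spindle list 9 of 48 (18.8%) were lower and 6 (12.5%) higher, or 14 lower and 1 higher at equal totals. SPC25 of the Ndc80 complex is at -2.59 per the authors' deposited table, its direct partner SPC24 at 0.84, and HSK3 of the Dam1 complex at 1.97. Succinyl-CoA ligase is a complex in which both subunits were lower, LSC1 at -2.72 and LSC2 at -1.83 per the authors' deposited table. The 20S proteasome list had 5 of 15 higher and 0 lower, or 0 higher and 1 lower at equal totals. Its highest member, UMP1 at 1.30 per the authors' deposited table, is an assembly chaperone and no subunit.

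**Figure D5:**
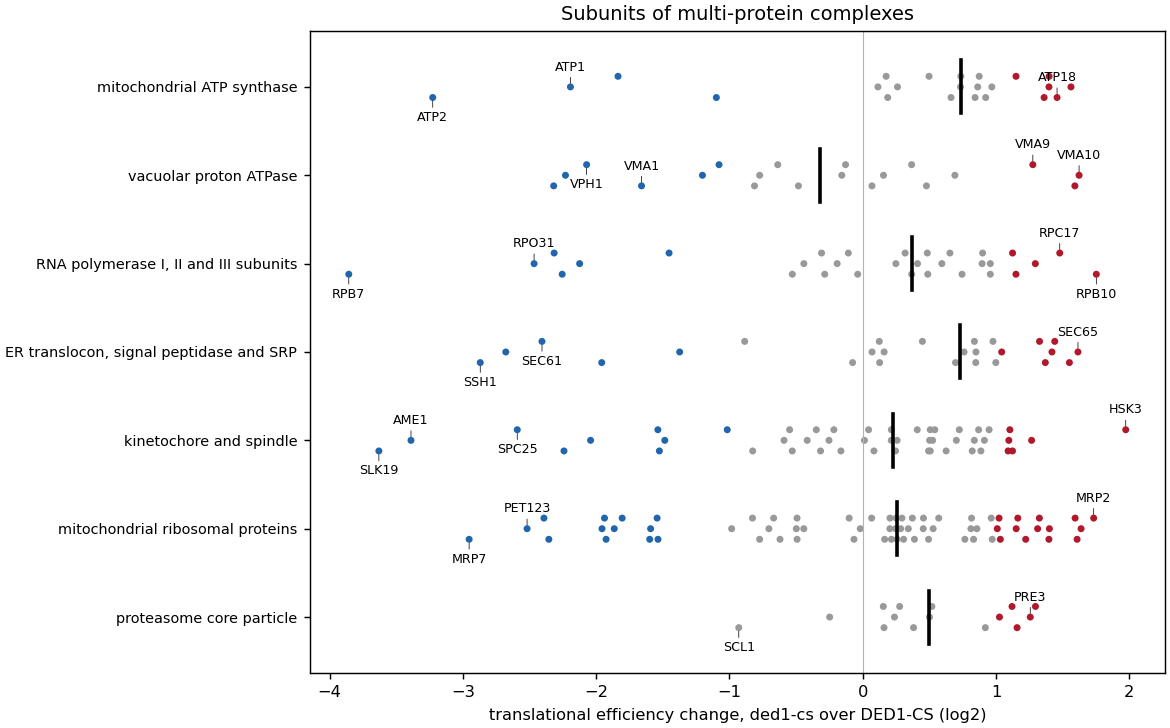
Change in translational efficiency (log2, ded1-cs over DED1-CS) of each analysed gene of 7 multi-protein assemblies, 1 point per gene, blue where lower and red where higher by 2-fold or more, with the list median as a thick bar. Some of these lists also hold assembly or regulatory factors that are no subunits. Genes of a single assembly spread widely, as from RPB7 at -3.86 to RPB10 at 1.75 per the authors' deposited table, while the proteasome core particle is narrow.

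Genes of the translation machinery included higher and lower ones. Of 18 factors of scanning and start codon choice 4 (22.2%) were higher and 1 (5.56%) lower, with a relative median of 0.40, or 1 higher and 2 lower at equal totals. TIF11, which encodes eIF1A, had a log2 footprint level of 13.2 in ded1-cs against 11.72 in DED1-CS and a log2 mRNA level of 11.3 in ded1-cs against 11.8 in DED1-CS. SUI1 (eIF1) and FUN12 (eIF5B) are at 1.46 and 1.36 per the authors' deposited table. The subunits of eIF2B, which recycles eIF2, ranged from GCD7 at -2.36 and GCD6 at -0.83 to GCN3 at 0.81 and GCD2 at 0.99 per the authors' deposited table. Among factors that bind the cap or the poly(A) tail, 1 of 11 (9.09%) was higher and 3 (27.3%) were lower, or 0 higher and 3 lower at equal totals. The genes for the scaffold eIF4G parted, with TIF4631 at 0.63 and TIF4632 at -1.26 per the authors' deposited table. The cap-binding protein CDC33 (eIF4E) is at 0.73 and PBP1, a partner of the poly(A)-binding protein, at -2.50 there. Of 15 elongation and termination factors 4 (26.7%) were higher and 2 (13.3%) lower, or 0 higher and 2 lower at equal totals. TEF1 and TEF2, near-identical genes for eEF1A, are both at 1.14 and YEF3 (eEF3) at -1.16 per the authors' deposited table. The lists of cytosolic ribosomal proteins cover only part of these genes. They had 8 of 39 large subunit genes (20.5%) higher and 0 lower, and 3 of 35 small subunit genes (8.57%) higher and 0 lower. Scaled to equal totals the large subunit genes had 2 higher and 2 lower, and the small subunit genes 0 of each. The 2 higher are RPL41A and RPL41B, at 2.99 and 2.97 per the authors' deposited table. They are near-identical copies, with a footprint change of 2.31 for each, so their reads cannot be told apart and they are not separate measurements. Of the mRNA decay factors 5 of 20 (25%) were lower and 1 (5%) higher, or 8 lower and 1 higher at equal totals. The exonuclease XRN1 is at -2.10 and the decapping subunit DCP1 at 1.60 per the authors' deposited table.

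Several groups held more higher than lower members on the deposited scale, and none of those in this paragraph did at equal totals. Under that scaling 91 of all 5078 genes were higher and 1789 lower, so counts at equal totals are to be set against these. Of 28 genes for small membrane proteins, proteolipids and other very short proteins, 18 were higher and 1 lower, with a relative median of 1.06, while 16.4% of all genes were higher. Scaled to equal totals the list had 2 higher and 2 lower. Its highest member is RPL41A, at 2.99 per the authors' deposited table, whose reads cannot be told apart from those of RPL41B. ATP19, COX9, QCR10, OST5 and VMA9 are in it and also in the lists of their complexes. Complex III, cytochrome c and complex IV had 11 of 21 higher and 1 lower, or 0 higher and 2 lower at equal totals. QCR7, a short subunit of complex III, had a log2 footprint level of 12.8 in ded1-cs against 11.58 in DED1-CS and a log2 mRNA level of 10.2 in ded1-cs against 10.6 in DED1-CS. CYT1, cytochrome c1, is the lower one at -1.13 per the authors' deposited table. Redox genes had 11 of 26 higher and 4 lower, or 0 higher and 6 lower at equal totals. Enzymes such as the glutaredoxin GRX1 at 1.57, the peroxiredoxin TSA1 at 1.30 and the superoxide dismutase SOD1 at 1.24 are high per the authors' deposited table. The regulators YAP1 and SKN7 are lower, at -2.05 and -1.63 per the authors' deposited table, as are GSH1, the first enzyme of glutathione synthesis, at -2.12 and GRX4 at -2.44. In glycolysis and fermentation 6 of 25 (24%) were higher and 2 lower, or 0 higher and 4 lower at equal totals. The aldolase FBA1 had a log2 footprint level of 20.2 in ded1-cs against 18.83 in DED1-CS and a log2 mRNA level of 17.7 in ded1-cs against 17.7 in DED1-CS. PFK1, a phosphofructokinase subunit, is lower at -1.76 per the authors' deposited table and its partner subunit PFK2 is at 0.09.

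Folding and degradation machinery held more higher than lower members on the deposited scale, on which 16.4% of all genes were higher and 21.9% lower. The chaperonin TRiC and prefoldin had 8 of 16 higher and 1 lower, or 1 higher and 3 lower at equal totals. The TRiC subunits run from TCP1 at -1.05 to CCT2 at 1.03 per the authors' deposited table, and the prefoldin subunits GIM5 and PFD1 are at 1.53 and 1.38. The proteasome regulatory particle had 8 of 21 higher and 1 lower, or 0 higher and 2 lower at equal totals. The lower one, RPN4 at -1.60 per the authors' deposited table, encodes the transcription activator of proteasome genes and no subunit. RPN14, at 1.16 there, is an assembly chaperone. Of 14 Hsp70 and Hsp110 genes 4 were higher and 0 lower, or 3 higher and 0 lower at equal totals. SSA4, the stress-induced Hsp70, had a log2 footprint level of 13.7 in ded1-cs against 9.73 in DED1-CS and a log2 mRNA level of 12.1 in ded1-cs against 10 in DED1-CS. The constitutive SSA1 and SSA2 are at 0.75 and 0.78 per the authors' deposited table, and the ribosome-bound SSB1 and SSB2 at -0.05 and -0.17. FES1, an exchange factor of Hsp70, is at 2.17 there. Of 28 genes for Hsp90, Hsp104, Hsp40 and small heat shock proteins 14 were higher and 1 lower, or 4 higher and 3 lower at equal totals. HSP42, a small heat shock protein, had log2 changes of 2.38 for footprints and 2.41 for mRNA per the authors' deposited table, so its translational efficiency is -0.03. HSF1, the activator of heat shock genes, is at -0.94 there. Splicing factors had 16 of 43 higher and 5 lower, or 0 higher and 6 lower at equal totals, with LEA1 of the U2 particle at 1.42 per the authors' deposited table. In the endocytosis and actin list 7 of 37 (18.9%) were higher and 7 (18.9%) lower, shares near those of all genes, or 2 higher and 11 lower at equal totals. Both tropomyosin genes were higher, TPM1 at 1.73 and TPM2 at 1.94 per the authors' deposited table, and both myosin V genes lower, MYO2 at -1.91 and MYO4 at -1.24.

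Changes in mRNA were few. Of the 62 genes higher in mRNA, 36 were also higher in footprints, 10 (16.1%) were higher and 16 (25.8%) lower in translational efficiency, close to the 16.4% and 21.9% of all genes. Of the 45 genes lower in mRNA, 20 were lower in footprints, 15 (33.3%) were higher and 1 (2.22%), RPI1, was lower in translational efficiency. The 10 genes higher in both mRNA and translational efficiency were DED1, 6 heat shock genes (BTN2, HSP30, ROQ1, SSA4, HSP104 and HSP26), the wall genes PST1 and NCW2, and SRL3. HSP104, the disaggregase, had a log2 footprint level of 16.6 in ded1-cs against 13.95 in DED1-CS and a log2 mRNA level of 14.1 in ded1-cs against 12.6 in DED1-CS. The 16 genes with higher mRNA and lower translational efficiency kept footprint changes between -1.54 and 1.19, and 13 of them were within 2-fold in footprints. PHO84, the high-affinity phosphate transporter, had a log2 footprint level of 8.1 in ded1-cs against 7.86 in DED1-CS and a log2 mRNA level of 8.9 in ded1-cs against 7 in DED1-CS, but it overlaps another annotated gene. TSL1, a subunit of trehalose synthase, had a log2 footprint level of 13.1 in ded1-cs against 13.04 in DED1-CS and a log2 mRNA level of 12 in ded1-cs against 10.7 in DED1-CS, nearly equal footprints from a raised mRNA. RIM8 and the repressor NRG1, both of the response to external pH, are at 2.24 and 1.29 in mRNA and at -1.05 and -1.33 in translational efficiency per the authors' deposited table. The 15 genes with lower mRNA and higher translational efficiency had footprint changes between -0.55 and 0.95. They include the pyrimidine synthesis genes URA1 and URA4, the ribosome assembly genes NOP16, CGR1, FYV7 and TMA16, and CHO1, phosphatidylserine synthase. CHO1 had a log2 footprint level of 13.4 in ded1-cs against 13.12 in DED1-CS and a log2 mRNA level of 11.9 in ded1-cs against 13.1 in DED1-CS, so its footprints differed little between the strains. Because translational efficiency is the footprint change minus the mRNA change, error in the mRNA value moves it the other way. Across the 5078 genes Pearson's r between the mRNA change and the translational efficiency change was -0.23 and Spearman's rank correlation was -0.28, a description over genes that share their libraries.

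The mRNA median of ribosome biogenesis genes stood at -0.49 on the log2 scale with the median of all genes taken as 0, with 1 of 74 lower by 2-fold. In translational efficiency 17 (23%) were higher and 5 (6.76%) lower, or 3 higher and 17 lower at equal totals. Their footprint median was -0.18 relative to all genes. UTP22, of small subunit assembly, is at -2.97 per the authors' deposited table and the large ATPase REA1 at 2.35. Amino acid biosynthesis genes had a relative mRNA median of -0.32, with 4 of 60 lower by 2-fold, and 10 (16.7%) higher and 4 (6.67%) lower in translational efficiency, or 0 higher and 12 lower at equal totals. GCN4, the activator of these genes, whose translation is governed by short upstream reading frames, had a log2 footprint level of 9.8 in ded1-cs against 11.51 in DED1-CS and a log2 mRNA level of 14.6 in ded1-cs against 13.9 in DED1-CS. ARG1, ARG3 and ARG4 of arginine synthesis were all lower in mRNA, at -2.10, -2.12 and -1.02 per the authors' deposited table. BNA1, BNA4 and BNA5, of NAD synthesis from tryptophan, were lower in mRNA too, at -1.10, -1.62 and -1.35, as were the vitamin B6 genes SNZ1, SNZ2, SNZ3 and SNO1, between -1.34 and -1.10 per the authors' deposited table. SNZ2 and SNZ3 are close copies, so reads may be split between them. OLE1, the fatty acid desaturase, had log2 changes of -1.44 for footprints and -1.32 for mRNA per the authors' deposited table, with translational efficiency at -0.11.

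Some related genes stood far apart and others moved together. Of 53 pairs of paralogs or of genes with related functions, 15 had both members lower, 3 both higher and 2 had members called in opposite directions, and 20 differed by at least 1 on the log2 scale. Of all genes 21.9% were lower and 16.4% higher in translational efficiency, and the SD of its change was 1.10. Pairs of unrelated genes were not counted, so whether related genes differ more or less than those was not tested. The pairs were picked by hand because they are well known. ENT1 and ENT2 encode epsins, endocytic adaptors. ENT1 had a log2 footprint level of 11.9 in ded1-cs against 10.75 in DED1-CS and a log2 mRNA level of 10.4 in ded1-cs against 10.4 in DED1-CS, and ENT2 had a log2 footprint level of 9 in ded1-cs against 11.16 in DED1-CS and a log2 mRNA level of 11 in ded1-cs against 10.8 in DED1-CS. Their translational efficiencies are 1.12 and -2.30 per the authors' deposited table. BAT1 and BAT2, the mitochondrial and cytosolic branched-chain aminotransferases, are at 1.17 and -1.43 per the authors' deposited table. PAP1 and PAP2, paired here as poly(A) polymerases and not as paralogs, are at -3.08 and 0.09 per the authors' deposited table. The kinases YPK1 and YPK2 differ in mRNA too, at 0.23 and 1.35 per the authors' deposited table, and have translational efficiencies of -1.73 and 0.30. The plasma membrane SNAREs SSO1 and SSO2 are at -1.05 and 0.83 per the authors' deposited table, and the ceramide synthase subunits LAG1 and LAC1 at -1.58 and 0.12. Pairs lower together include CLB1 with CLB2, DNF1 with DNF2, GEA1 with GEA2 and NUP100 with NUP116.

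The ded1-ts strain at 37 °C, set against DED1-TS, shares no library with this comparison. List medians relative to all genes of the same table were -1.28 in ded1-cs and -0.45 in ded1-ts for G1 and S phase control, and -1.04 in ded1-cs and -0.51 in ded1-ts for mitotic cyclins and exit. They were -1.01 in ded1-cs and -0.72 in ded1-ts for cAMP and glucose signalling. Cell wall mannoproteins had 0.80 in ded1-cs and -0.19 in ded1-ts, and N-glycosylation genes -1.04 in ded1-cs and -0.07 in ded1-ts. Fewer genes passed 2-fold in ded1-ts, so its list medians stand on a narrower range of change. Over 5071 genes analysed in both, 331 were lower and 120 higher in ded1-ts, against 1109 and 831 in ded1-cs. The tables were scaled separately, the temperatures differ and no difference between the mutants was tested. By gene, the authors' deposited table has SWI4 at -2.22, TPK2 at -2.92, SEC21 at -3.35 and RPB7 at -3.86 for ded1-cs over DED1-CS. For ded1-ts over DED1-TS, SWI4 is at -0.93, TPK2 at -2.23, SEC21 at -1.64 and RPB7 at -2.14 per the authors' deposited table. The ded1-cs strain with hcDBP1 was set against the same DED1-CS libraries, so the comparisons share controls. For these genes the authors' deposited table has SWI4 at -1.42 with hcDBP1, TPK2 at -1.91, SEC21 at -2.11 and RPB7 at -2.29, all against DED1-CS. They were named for standing at the low end in ded1-cs, so milder values in other comparisons cannot be read as a difference. An effect of hcDBP1 was not tested.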

How the data were processed

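Footprint and mRNA libraries of ded1-cs and DED1-CS at 15 °C were used, 2 per strain and assay. Per the submitters' processing notes the genome build was sacCer2 and the tools were TopHat2 2.1.0, Bowtie2 2.6.0, CASAVA 1.8 and DESeq2, with no roles stated. Per gene, the authors deposited a log2 level for each strain and assay and the log2 changes between strains, from pooled libraries, each table scaled separately. The base is not given in the sources used here and was taken as 2 from the size of the values. No values per library were in the tables, so the planned edgeR and limma tests were not run. Genes with a mean log2 level of at least that of 50 in both assays were kept, and called at a log2 change of 1. Deposited changes were used, since rounded level differences departed by up to 0.10. Gene IDs were matched by locus tag (5388 of 5390) to RefSeq names. That reference is of another build, so no coordinates or sequences are given. The arithmetic of the list counts and medians was checked on simulated data, which tests no difference in the real data.

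The members, lists and gene pairs were chosen with earlier results of these data known. Named genes are DED1, DBP1, up to 3 at each end of each list, the 25 at each end of all genes, opposite mRNA and translational efficiency changes, and paralogs. Others were chosen after their values were seen. Tools were Python 3.11.15, pandas 2.3.3, NumPy 2.4.6, SciPy 1.17.1 and matplotlib 3.10.9. Alternatives were other level minimums, thresholds and scalings.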

Additional observations from a re-analysis of the deposited data

Results flagged for a closer look

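Of 5071 genes analysed in both comparisons, 4 were lower in translational efficiency in ded1-cs at 15 °C and higher in ded1-ts at 37 °C, and 0 were the reverse. Over the same 5071 genes 1109 were lower and 831 higher in ded1-cs, and 331 were lower and 120 higher in ded1-ts. Whether the mutants differ was not tested. GCN4, the activator of amino acid biosynthesis, is at -2.40 for ded1-cs and 1.43 for ded1-ts per the authors' deposited table. KTR5, a putative mannosyltransferase, is at -1.32 for ded1-cs and 1.05 for ded1-ts per the authors' deposited table. CNL1 is at -1.02 for ded1-cs and 1.26 for ded1-ts per the authors' deposited table, and YIL060W, which overlaps another annotated reading frame, at -1.24 for ded1-cs and 2.00 for ded1-ts.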

How the results depend on the processing

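No paired analysis was possible because the tables hold 1 pooled value per strain and assay, and for the same reason no replicate could be left out and no count test was run. Scaling the columns to equal totals gave 91 genes higher and 1789 lower in translational efficiency, against 832 and 1113, and 157 higher and 1663 lower in footprints, against 710 and 1023. A log2 threshold of 1.5 gave 139 genes higher and 633 lower for translational efficiency, 171 higher and 592 lower for footprints, and 15 higher and 9 lower for mRNA. A threshold of 0.5 gave 1817 higher for translational efficiency, 1773 higher and 1624 lower for footprints, and 422 higher and 385 lower for mRNA. With no minimum level, 70 genes were lower in mRNA, against 45. Level minimums of 10 and 200, a minimum in both strains, median centring and differences of the level columns kept all 6 counts within 1.5 times. Of 59 list medians, 53 moved by less than 0.1 at a minimum of 200, and no list median changed sign at a minimum of 10 or 200, while 2 did with differences of the level columns. Under equal totals 99 named genes fell below 2-fold and 6 passed it. A comparison by length was not run, since no length table was at hand.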

Other observations

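Of 28 genes of ubiquitin conjugation 8 (28.6%) were lower and 5 (17.9%) higher in translational efficiency in ded1-cs, or 9 lower and 0 higher at equal totals. Of all genes 21.9% were lower and 16.4% higher, so the shares in this list and in the next lists are not far from those of all genes. The ligases UFD2, RSP5 and HRD1 are at -2.54, -2.44 and -2.39 per the authors' deposited table, while the conjugating enzymes UBC4, UBC5 and UBC13 are at 1.06, 1.16 and 1.06 and the large ligase TOM1 is at 1.31. Of 49 genes of DNA replication and cohesion 11 (22.4%) were lower and 7 (14.3%) higher, or 15 lower and 0 higher at equal totals. Subunits of the clamp loader parted, with RFC2 at -2.53 and RFC4 at 1.5 per the authors' deposited table, and the clamp POL30 (PCNA) is at 1.23. In the list of SNAREs, exocyst and Rab GTPases 6 of 37 (16.2%) were lower and 8 (21.6%) higher, or 13 lower and 0 higher at equal totals, from the SNARE SEC22 at -2.29 to the SNARE PEP12 at 1.45 per the authors' deposited table.

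In the TORC1, TORC2 and autophagy list 9 of 32 (28.1%) were lower and 5 (15.6%) higher, or 17 lower and 1 higher at equal totals. The autophagy kinase ATG1 and its partner ATG13 are at -1.45 and -1.99 per the authors' deposited table, while ATG17, a scaffold of the same complex, and the ubiquitin-like ATG8 are at 1.70 and 1.36. The kinases TOR1 and TOR2 are at 0.23 and 0.16 there. In the glycogen and trehalose genes of the general stress list, glycogen synthases GSY1 and GSY2 are at -2.01 and -1.27 per the authors' deposited table, and glycogen phosphorylase GPH1 at -2.37. That list had 8 of 32 higher and 9 lower, or 2 higher and 11 lower at equal totals.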
